A study of Ovis aries with 22 samples.

Results

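The 10 genes described here encode the contractile filaments of smooth muscle and were followed across the walls of the aortic sinus, the pulmonary sinus and the pulmonary autograft of sheep. They were taken by name from both deposited count tables: the motor MYH11, the actins ACTA2 and ACTG2, the tropomyosins TPM1 and TPM2, the actin-bound regulators CALD1, CNN1, TAGLN and SMTN, and the kinase MYLK. All 10 were found among the 26200 gene symbols of the tables, and all 10 passed the filter on low counts that left 14979 genes for testing.

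In the Ross procedure the diseased aortic root is replaced by the patient's own pulmonary root, which then works as an autograft under aortic pressure. RNA sequencing of bulk tissue was done on 11 libraries, each sequenced in 2 runs that were summed here. The autograft group was the sinus wall of the pulmonary root of 3 sheep, 6 months after that root had been moved into aortic position by Ross surgery. The native groups were the aortic sinus and the pulmonary sinus of 4 sheep described as not operated, with the same 4 animals, labelled D3 to D6, giving both tissues. One aortic library, replicate 1 from animal D3, carries the treatment label of the operated animals, whereas the series describes its controls as not operated and the pulmonary library of the same animal is labelled as control. Results are therefore also given without animal D3 where its library bears on them. No sham operation is among the groups, so surgery, the aortic position and 6 months of growth cannot be told apart. Breed, sex and age are not stated in the labels, which name no genetic change or agent for any group.

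Contraction of smooth muscle rests on filaments of smooth muscle myosin pulling on thin filaments of actin, along which tropomyosin lies. Calcium entry activates calmodulin and through it myosin light chain kinase, which switches the motor on, while caldesmon and calponin sit on the thin filament and restrain it. In the arterial media these proteins mark the differentiated, contractile state of the muscle cell.

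Counts per library ranged from 17380599 to 20741334, and every member had at least 10961 counts in each library, so that counting error alone was at most 0.955% of a value. Levels are given as CPM, counts scaled to a common library total, after adjustment between libraries with the trimmed mean of M-values (TMM). Counts are not divided by gene length, so levels are compared between libraries and never between genes. In a principal component analysis autograft replicate 1 stood apart from the other autografts on the second component (64.1 against -22.0 and -31.4), and pulmonary replicate 1 lay beside the aortic libraries on the first component (9.34, with the other pulmonary libraries at -29.5 to -67.6). The defining markers of the labelled tissue were present in all libraries: summed over 7 smooth muscle marker genes, 5 of which are members, the level was 24611 to 46286 CPM in autograft, 49439 to 69569 in aortic and 50982 to 82109.8 in pulmonary libraries. Marker sums are CPM of the library total, without the TMM adjustment. In bulk tissue, fewer muscle cells and less RNA per muscle cell cannot be told apart.

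Against the native pulmonary sinus, the tissue from which the autograft was made, the motor myosin gene MYH11 was 2.47-fold lower and the smoothelin gene SMTN 2.21-fold lower in the autograft. These 2 of 10 members passed the test in edgeR's quasi-likelihood fit (adjusted p under 0.05 over all genes tested), both lower. The background in that comparison was 11.3% of genes called in either direction and 5.29% called lower. The other 8 members did not pass, although the estimates of all 10 were below 0, from -1.30 for MYH11 to -0.12 for ACTG2 on the log2 scale, with a median of -0.54 (0.00 over all genes tested). At an unadjusted p under 0.05 there were 4 of 10 members, MYH11, SMTN, CALD1 and MYLK, and 30.6% of all genes tested. With the autograft and pulmonary libraries fitted alone, both calls were lost (edgeR adjusted p = 0.0578 for MYH11 and 0.101 for SMTN).

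**Figure D1:**
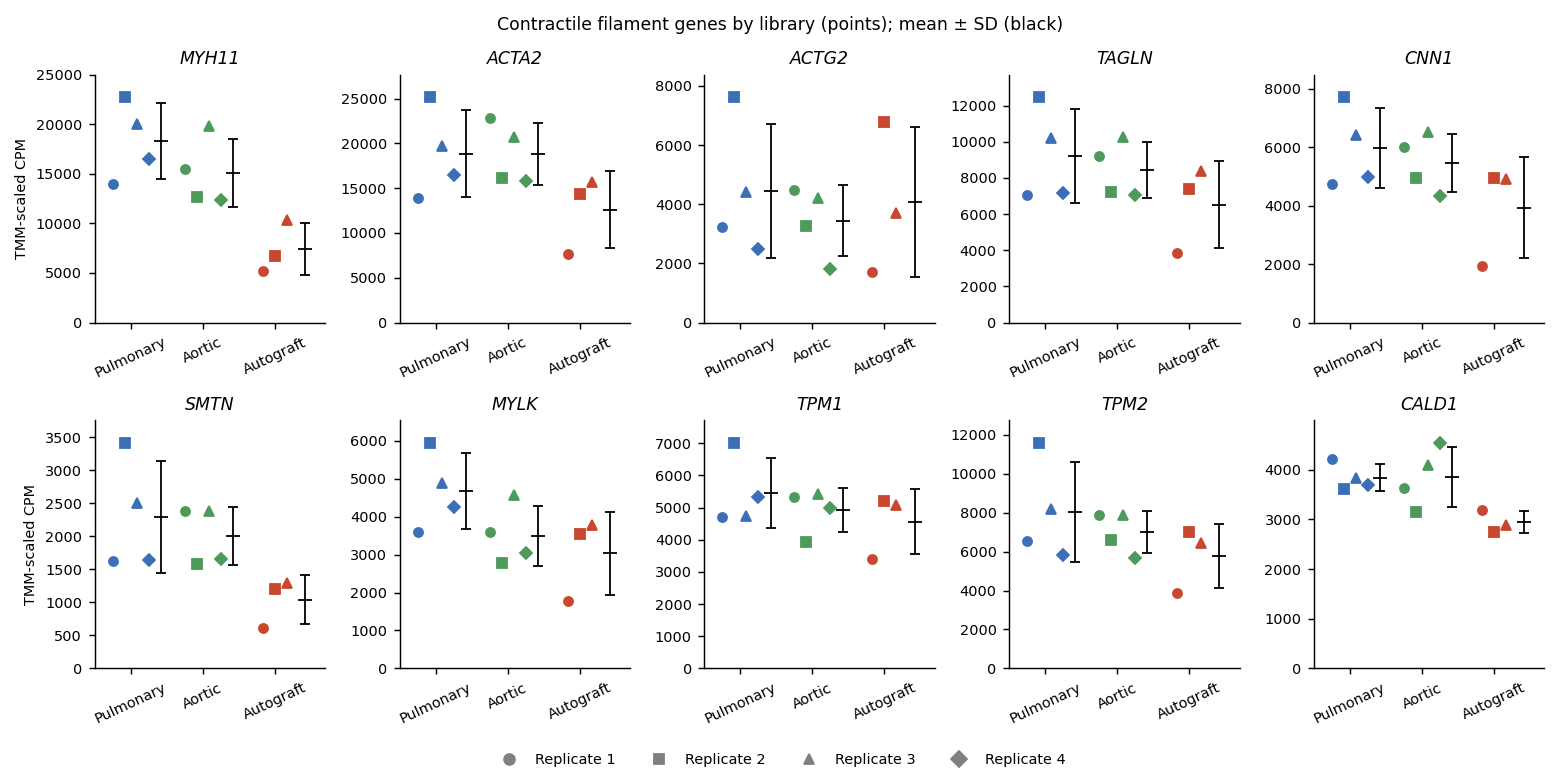
Level of each contractile filament gene in the 11 libraries, in TMM-scaled CPM on a linear axis from 0; points are libraries, shaped by replicate number, and the black bar is the mean with its SD. All 3 autograft libraries lie below all native libraries for MYH11 and SMTN, and autograft replicate 1 is the lowest library in every panel but CALD1.

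MYH11 encodes the heavy chain of smooth muscle myosin. Its level was 5184, 6731 and 10329 CPM in autograft replicates 1 to 3, 13999, 22730.4, 20022 and 16439 CPM in pulmonary replicates 1 to 4 and 15432, 12686, 19781 and 12356 CPM in aortic replicates 1 to 4. Every autograft library lay below every native library, and the 2 native groups overlapped. Mean levels were 7415 ± 2639.9 CPM (SD, n = 3) in the autograft group, 18298 ± 3854 CPM (SD, n = 4) in the pulmonary group and 15064 ± 3434 CPM (SD, n = 4) in the aortic group. The difference was -1.30 ± 0.28 (log2, SE; edgeR adjusted p = 0.0197) against the pulmonary sinus and -1.02 ± 0.28 (log2, SE; edgeR adjusted p = 0.0782) against the aortic sinus. MYH11 thus passed the test against one native tissue and missed it against the other, and those comparisons share the autograft libraries. Leaving out 1 library at a time, MYH11 stayed below the pulmonary level by 1.11 to 1.62 on the log2 scale, and its call was lost in edgeR without autograft replicate 2 (adjusted p = 0.0706), pulmonary replicate 2 (0.0524) or pulmonary replicate 3 (0.0533). Without animal D3 the log2 fold change was -1.41 against the pulmonary (edgeR adjusted p = 0.0210) and -1.01 against the aortic sinus (0.131).

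ACTA2 encodes the alpha actin of vascular smooth muscle, and ACTG2 the gamma actin first known from visceral smooth muscle. ACTA2 stood at 7665, 14403 and 15659.6 CPM in the autografts, 13957, 25168, 19744 and 16518 CPM in the pulmonary and 22842, 16101, 20679 and 15809 CPM in the aortic libraries. Autograft replicate 1 was far below all others, while autograft replicates 2 and 3 lay just under the lowest aortic library and within the pulmonary range. The difference was -0.58 ± 0.29 (log2, SE; edgeR adjusted p = 0.193) against the pulmonary and -0.58 ± 0.29 (log2, SE; edgeR adjusted p = 0.250) against the aortic sinus. ACTA2 did not pass against either tissue.

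ACTG2 had the widest spread among the autografts, at 1724, 6778 and 3714 CPM, a 3.93-fold range. In the native tissues it stood at 3221, 7622, 4428 and 2487 CPM (pulmonary) and 4484, 3248, 4206 and 1815 CPM (aortic). Autograft replicate 2 was above every library but pulmonary replicate 2, autograft replicate 1 was the lowest of all 11, and the groups overlapped throughout. The difference was -0.12 ± 0.49 (log2, SE; edgeR adjusted p = 0.889) against the pulmonary and 0.24 ± 0.48 (log2, SE; edgeR adjusted p = 0.798) against the aortic sinus. Its direction turned against the pulmonary sinus without autograft replicate 1 (0.22) or pulmonary replicate 2 (0.27), and against the aortic sinus without autograft replicate 2 (-0.33). Actin genes are nearly identical in their coding sequence, and the sources used here do not say how reads that fit several of them were counted, so the split of reads between ACTA2, ACTG2 and the striated actins is uncertain. The rows of the striated actins held 60.9 to 383 CPM for ACTA1 and 135 to 2344 CPM for ACTC1 over the 11 libraries.

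Tropomyosins form the cable that runs along the actin filament and sets where myosin can bind. TPM1 stood at 3406, 5199.8 and 5090.3 CPM in autograft, 4721, 7015, 4742 and 5318 CPM in pulmonary and 5329, 3931, 5425 and 4985 CPM in aortic libraries. Outside autograft replicate 1 the autograft values lay inside both native ranges. The log2 fold change was -0.26 ± 0.21 (log2, SE; edgeR adjusted p = 0.434) against the pulmonary and -0.11 ± 0.21 (log2, SE; edgeR adjusted p = 0.794) against the aortic sinus. TPM2 stood at 3898, 6993 and 6426 CPM in autograft, 6546, 11595, 8188 and 5804 CPM in pulmonary and 7901, 6599.5, 7902 and 5675 CPM in aortic libraries. The same autograft library was the lowest, and the other autografts were again within both native ranges. The difference of TPM2 was -0.48 ± 0.27 (log2, SE; edgeR adjusted p = 0.261) against the pulmonary and -0.28 ± 0.27 (log2, SE; edgeR adjusted p = 0.567) against the aortic sinus. Neither tropomyosin gene passed in any comparison. Both genes make striated and non-muscle forms as well by alternative splicing, and gene-level counts do not separate these forms. Nor do they separate the several forms that CALD1, MYH11 and MYLK each make.

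CALD1 encodes caldesmon, an actin- and tropomyosin-bound inhibitor of the motor. It stood at 3189, 2757 and 2897 CPM in autograft, 4215, 3619, 3842 and 3685 CPM in pulmonary and 3639, 3147, 4089 and 4542 CPM in aortic libraries. The autografts were close together and all below the pulmonary libraries, while autograft replicate 1 lay above aortic replicate 2. The difference was small, -0.38 ± 0.15 (log2, SE; edgeR adjusted p = 0.113) against the pulmonary and -0.39 ± 0.15 (log2, SE; edgeR adjusted p = 0.161) against the aortic sinus. It did not pass in edgeR, and DESeq2 gave an adjusted p of 0.0315 for the same 1.30-fold difference from the pulmonary sinus.

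CNN1, calponin, and TAGLN, transgelin (SM22), are related actin-binding proteins of differentiated smooth muscle. CNN1 stood at 1925, 4958 and 4907 CPM in autograft, 4755, 7711, 6402 and 4992 CPM in pulmonary and 6003, 4936, 6533 and 4343 CPM in aortic libraries. TAGLN stood at 3824, 7359 and 8378 CPM in autograft, 7045, 12471, 10180.0 and 7166 CPM in pulmonary and 9239, 7245, 10239 and 7068 CPM in aortic libraries. In both genes autograft replicate 1 was the lowest of all libraries and autograft replicates 2 and 3 lay among the native ones. The CNN1 difference was -0.60 ± 0.31 (log2, SE; edgeR adjusted p = 0.220) against the pulmonary and -0.47 ± 0.31 (log2, SE; edgeR adjusted p = 0.393) against the aortic sinus. For TAGLN it was -0.50 ± 0.30 (log2, SE; edgeR adjusted p = 0.277) and -0.37 ± 0.30 (log2, SE; edgeR adjusted p = 0.477). Neither gene passed.

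SMTN encodes smoothelin, an actin-binding protein of contractile muscle cells. It stood at 617, 1206 and 1299.9 CPM in autograft, 1624, 3418, 2504 and 1646 CPM in pulmonary and 2387, 1589, 2389.6 and 1663 CPM in aortic libraries. All 3 autografts lay below all 8 native libraries. Mean levels were 1041 ± 370.4 CPM (SD, n = 3) in the autograft group, 2298 ± 852 CPM (SD, n = 4) in the pulmonary group and 2007 ± 441 CPM (SD, n = 4) in the aortic group. The difference was -1.14 ± 0.33 (log2, SE; edgeR adjusted p = 0.0475) against the pulmonary and -0.95 ± 0.33 (log2, SE; edgeR adjusted p = 0.128) against the aortic sinus. The call against the pulmonary sinus lay close to the threshold and was kept in 1 of 7 edgeR fits that left out a library, without pulmonary replicate 1. In the other 6 the adjusted p was 0.0507 to 0.118, with a log2 fold change of -0.89 without either autograft replicate 1 or pulmonary replicate 2. Without animal D3 it was -1.28 against the pulmonary (adjusted p = 0.0372) and -0.85 against the aortic sinus (0.211).

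MYLK encodes myosin light chain kinase and, from a promoter inside the gene, the short protein telokin, which these counts do not set apart. It stood at 1773, 3542 and 3788 CPM in autograft, 3592, 5949.9, 4887 and 4254 CPM in pulmonary and 3606, 2787, 4570.3 and 3033 CPM in aortic libraries. Autograft replicate 1 was the lowest library, autograft replicate 2 lay within the aortic range only, and autograft replicate 3 lay within both native ranges. The difference was -0.62 ± 0.28 (log2, SE; edgeR adjusted p = 0.160) against the pulmonary and -0.21 ± 0.28 (log2, SE; edgeR adjusted p = 0.695) against the aortic sinus, and it did not pass in either.

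**Figure D2:**
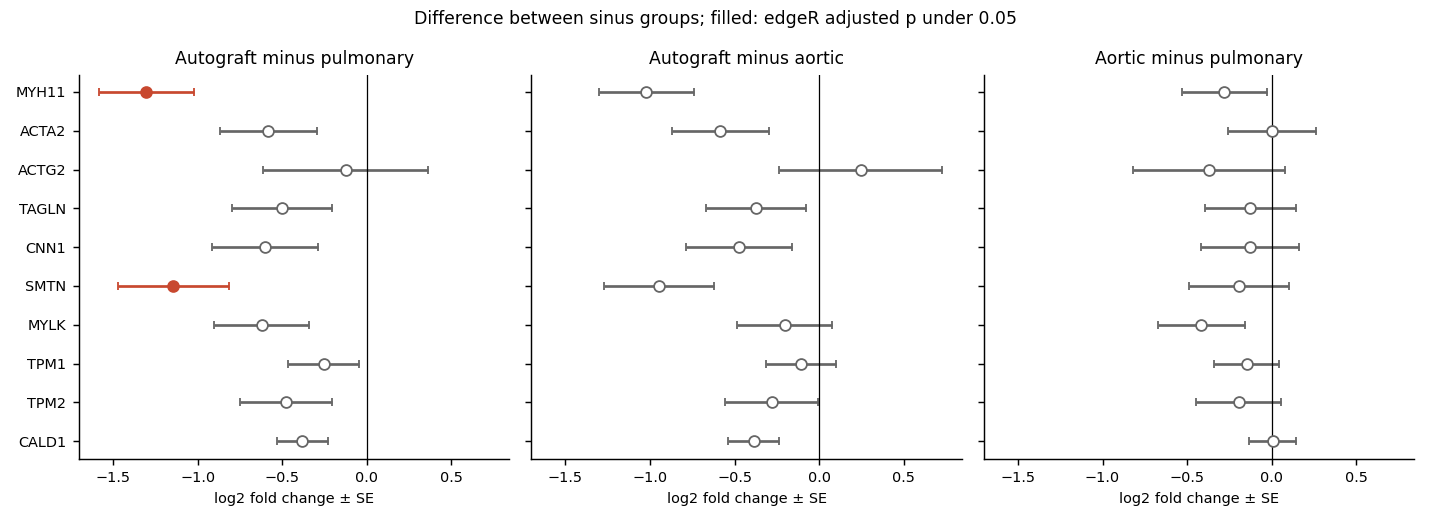
Log2 fold change of each contractile filament gene with its standard error in the 3 comparisons of 1 edgeR fit; filled red points have an adjusted p under 0.05 over all genes tested. MYH11 and SMTN are the filled points, both in autograft minus pulmonary, and all aortic minus pulmonary estimates lie between -0.42 and 0.01.

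Libraries of the autograft and the pulmonary sinus did not overlap for 3 of 10 members, MYH11, SMTN and CALD1, all lower in the autograft. Over all genes tested, 11.2% did not overlap in that direction. The members' share of all counts was 3.40%, 5.92% and 6.06% in the autografts (mean 5.12 ± 1.499, SD, n = 3), 6.35% to 10.5% in the pulmonary libraries (8.09 ± 1.93, SD, n = 4) and 6.17% to 8.59% in the aortic libraries (7.28 ± 1.19, SD, n = 4). The lowest share was that of autograft replicate 1 and the highest that of pulmonary replicate 2. These same libraries were the lowest and the highest of all 11 in 9 of 10 members. Without autograft replicate 1 and pulmonary replicate 1, a choice made after seeing the data, MYH11 was the 1 member called in edgeR (log2 fold change -1.23, adjusted p = 0.0274) and SMTN stood at -1.03 (0.0549).

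Against the native aortic sinus, the site whose pressure the autograft carries, 9 of 10 members had estimates below 0, with a median of -0.38 (0.00 over all genes tested), and none passed in edgeR. The background was 2.38% of genes called in either direction and 1.43% called lower. MYH11, at 2.03-fold lower, and SMTN, at 1.93-fold lower, were farthest from 0, and with CALD1 they made the 3 of 10 members at an unadjusted p under 0.05, where 23.0% of all genes stood. DESeq2 called MYH11 (adjusted p = 0.00440) and SMTN (0.0408). The authors' FPKM gave a call of MYH11 as well, but their MYH11 value is the same in all 8 native libraries, so that call holds no spread between native libraries. Libraries did not overlap for MYH11, ACTA2 and SMTN, 3 of 10, against 10.8% of all genes lower without overlap. Without autograft replicate 1 the estimates of MYLK and TPM1 turned to 0.074 and 0.073. This comparison and the one with the pulmonary sinus share the 3 autograft libraries.

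Between the native sinuses the levels of the filament genes did not differ detectably. In edgeR 0 of 10 members and 0 of 14979 genes (0%) were called, and DESeq2 called 0 members. At an unadjusted p under 0.05 there were 0 members and 306 genes. Estimates for aortic minus pulmonary ran from -0.42 ± 0.26 (SE) for MYLK to 0.01 ± 0.14 for CALD1, 8 of 10 were below 0, and the median was -0.17. Libraries of the native groups overlapped for every member.

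The filament genes were then compared with each other inside each library, where scaling between libraries has no part. MYH11 made up 11.2% to 16.5% of the members' counts in the autografts, 21.2% to 24.1% in the pulmonary and 19.1% to 23.1% in the aortic libraries. SMTN made up 1.98 ± 0.115% (SD, n = 3) in the autografts, 2.77 ± 0.357% (SD, n = 4) in the pulmonary and 2.75 ± 0.166% (SD, n = 4) in the aortic libraries. For both genes the autograft share lay below all native shares. TPM1 went the other way, with 9.03 ± 1.10% (SD, n = 3) in the autografts against 6.83 ± 0.982% and 6.84 ± 0.872% in the pulmonary and aortic libraries (SD, n = 4 each), the autografts all above the native libraries. The lowest autograft share of TPM1, 8.15%, was close to the highest aortic share, 8.13%. Set against the mean log2 CPM of the other 9 members in its library, MYH11 was 0.78 lower in the autograft than in the pulmonary sinus, SMTN was 0.57 lower and TPM1 was 0.41 higher. Compared with the aortic sinus, MYH11 was 0.66 lower and SMTN 0.59 lower, both without overlap. TPM1 was 0.38 higher than in the aortic sinus, and there the libraries overlapped. On that scale MYLK alone among the members did not overlap between the native sinuses, with a difference of -0.28 for aortic minus pulmonary. How often other genes do not overlap on that scale was not computed, so this separation has no background to be read against. In the edgeR test of its level MYLK did not pass between the native sinuses (log2 fold change -0.42, unadjusted p = 0.133). Its share was 4.46% to 5.33% in the aortic and 5.55% to 6.23% in the pulmonary libraries. These shares move together by construction, since all of them are parts of 1 sum.

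**Figure D3:**
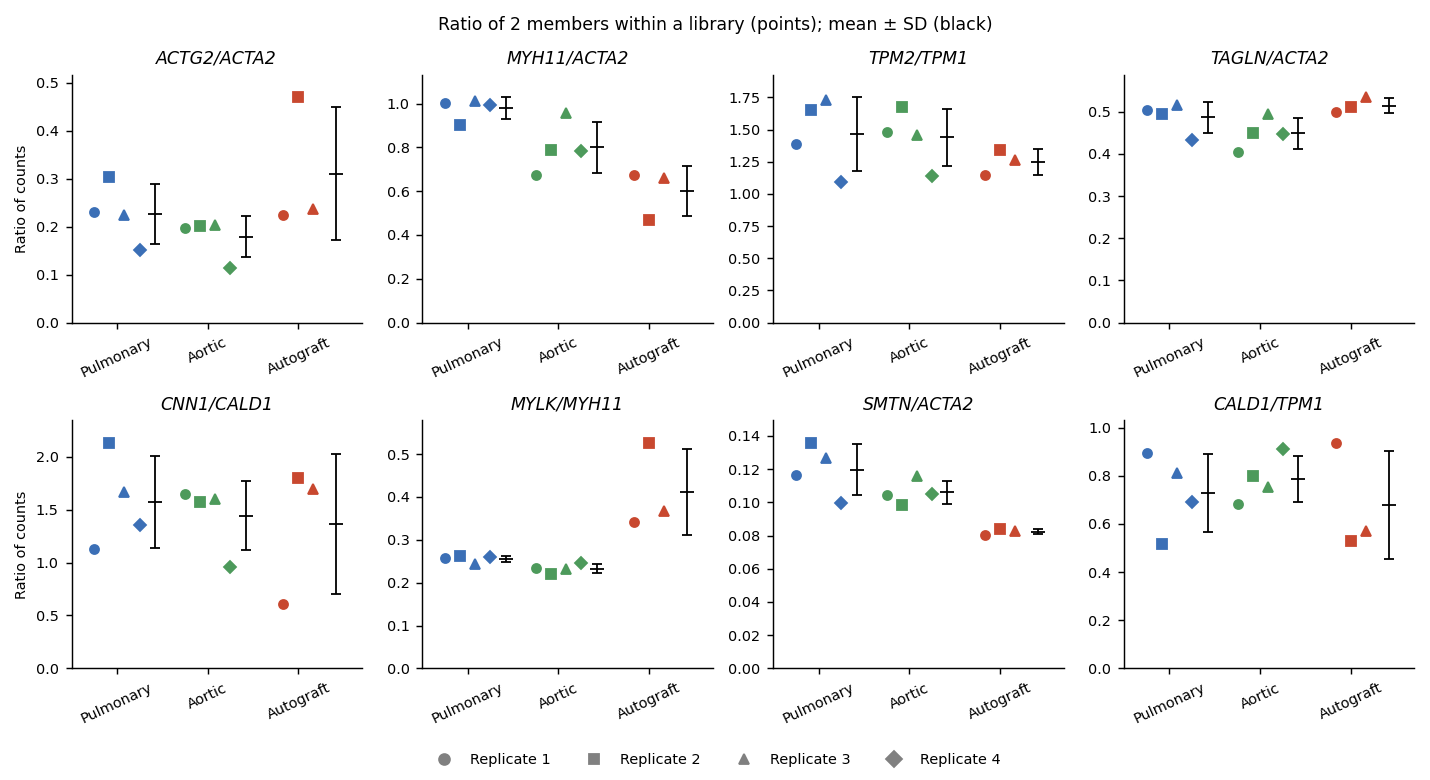
Ratio of the counts of 2 contractile filament genes within each library, on linear axes from 0; points are libraries, shaped by replicate number, and the black bar is the mean with its SD. The MYLK/MYH11 ratio is 0.342 to 0.526 in the autografts and 0.220 to 0.262 in the native libraries.

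Among 8 chosen ratios of one member's count to another's, the kinase stood higher against the motor in the autograft. The MYLK/MYH11 ratio was 0.342, 0.526 and 0.367 in the autografts, 0.257, 0.262, 0.244 and 0.259 in the pulmonary and 0.234, 0.220, 0.231 and 0.245 in the aortic libraries. No autograft overlapped a native library, and the native ratios were close together. The log2 difference was 0.66 against the pulmonary (exact permutation test, two-sided, p = 0.0286) and 0.80 against the aortic sinus (exact p = 0.0286), the smallest p this design allows. Set against the mean log2 CPM of the other 9 members, MYLK differed by -0.047 from the pulmonary and 0.23 from the aortic sinus, overlapping both. MYH11 differed by -0.78 and -0.66, so the ratio mainly restates the low MYH11.

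Myosin to actin, MYH11/ACTA2, was 0.676, 0.467 and 0.660 in the autografts, 1.003, 0.903, 1.01 and 0.995 in the pulmonary and 0.676, 0.788, 0.957 and 0.782 in the aortic libraries. The autografts lay below all pulmonary libraries and touched the aortic range at aortic replicate 1. That replicate is the library of animal D3 that carries the label of the operated animals. The other aortic ratios, 0.782 to 0.957, lay above every autograft. The log2 difference was -0.72 against the pulmonary (exact permutation p = 0.0286) and -0.42 against the aortic sinus (exact permutation p = 0.0857). SMTN/ACTA2 was nearly constant among the autografts, at 0.0804, 0.0837 and 0.0830, below the pulmonary (0.116, 0.136, 0.127 and 0.0996) and the aortic libraries (0.105, 0.0987, 0.116 and 0.105). SMTN was thus low against actin even in autograft replicates 2 and 3, whose ACTA2 lay within the pulmonary range. The log2 difference was -0.53 (exact permutation p = 0.0571) and -0.36 (exact permutation p = 0.0286).

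ACTG2/ACTA2 was 0.225, 0.471 and 0.237 in the autografts, 0.231, 0.303, 0.224 and 0.151 in the pulmonary and 0.196, 0.202, 0.203 and 0.115 in the aortic libraries. All autografts were above the aortic libraries (log2 difference 0.75, exact permutation p = 0.0286) and overlapped the pulmonary ones (0.41, exact permutation p = 0.343). TAGLN/ACTA2 was 0.499 to 0.535 in the autografts, above the aortic range of 0.404 to 0.495 (0.20, exact permutation p = 0.0571) and overlapping the pulmonary range of 0.434 to 0.516. The ratios TPM2/TPM1, CNN1/CALD1 and CALD1/TPM1 overlapped in every comparison. In all, 3 of 8 ratios did not overlap against the pulmonary sinus, 4 of 8 against the aortic sinus and 0 of 8 between the native sinuses. The ratios share members, and the share without overlap among ratios of other gene pairs was not computed. These counts therefore have no background to be read against. None of the 24 tests had a Benjamini-Hochberg adjusted p under 0.05, and the smallest was 0.137. The tests between the native sinuses, part of that adjustment, took no account of the same animals giving both tissues.

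**Figure D4:**
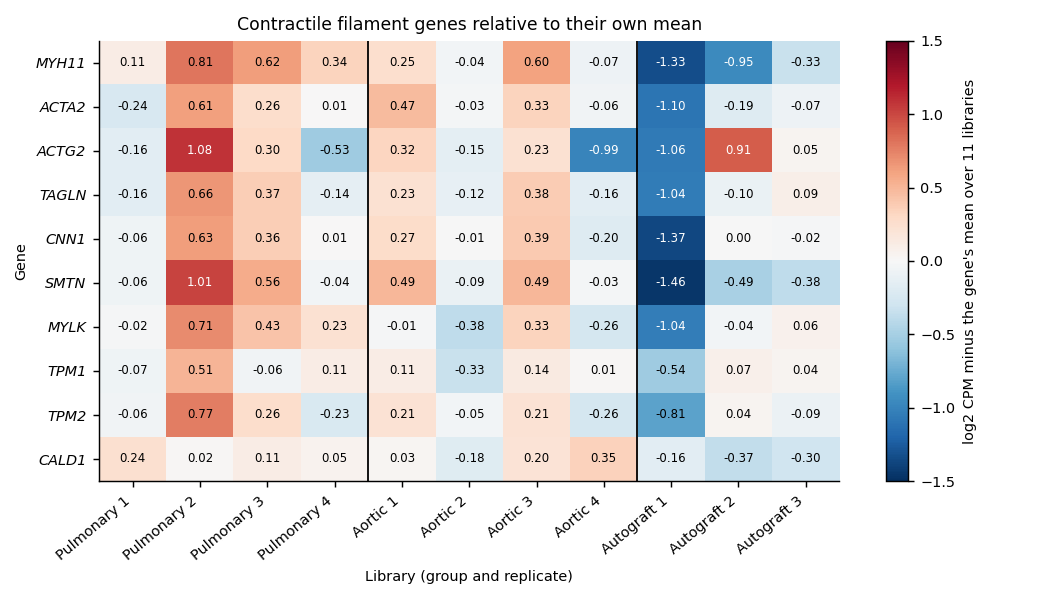
Level of each contractile filament gene in each library, as log2 CPM minus the mean of that gene over the 11 libraries; blue is below and red above the gene's own mean, and vertical lines part the groups. Autograft replicate 1 runs from -1.46 (SMTN) to -0.16 (CALD1), and pulmonary replicate 2 from 0.02 (CALD1) to 1.08 (ACTG2).

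The levels of most filament genes varied together from library to library. Over the 45 pairs of members the median Pearson correlation of log2 CPM across the 11 libraries was 0.83, and 13 pairs were over 0.90, led by TAGLN with CNN1 (0.97). Within the 8 native libraries alone the median was 0.81. CALD1 stood apart: its median correlation with the other members was 0.24 over all libraries and -0.14 over the native ones. Over all libraries ACTG2 was the next lowest, at 0.67. Over the native ones ACTG2 stood at 0.81, and TPM1 was the next lowest, at 0.70. These correlations are descriptions over 11 points that share depth, scaling and the groups.

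The 5 genes outside the members whose log2 CPM followed the members' mean most closely over the 11 libraries were FBXO18 (r = 0.98), GTPBP1 (0.98), CSRP1 (0.98), RBPMS2 (0.97) and RAC3 (0.97). Of these, CSRP1 encodes a muscle LIM protein of smooth muscle and RBPMS2 an RNA-binding protein of smooth muscle cells. For single members the nearest gene was ITGA9 for MYH11 (0.98), IDH3G for ACTA2 (0.99), METTL13 for ACTG2 (0.95), CNN1 for TAGLN and TAGLN for CNN1 (0.97), GTPBP1 for SMTN (0.99), FBXO18 for MYLK (0.97), NDUFS3 for TPM1 (0.95), PFN1 for TPM2 (0.97) and PPFIA1 for CALD1 (0.93). These are the highest of 10919 or 10928 candidates, and a high value for some gene is built into that choice.

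The light chains and the enzymes that set their phosphorylation, act directly on the motor. Of 15 such genes tested, edgeR called 1 lower and 0 higher against the pulmonary sinus, where 5.29% of all genes were called lower. Against the aortic sinus 0 were called, and 5 had an unadjusted p under 0.05, as did 23% of all genes. The gene called was CAMK2G, a calcium- and calmodulin-dependent kinase. It was at 217 ± 67.0 CPM (SD, n = 3) in the autograft and 555 ± 246 CPM (SD, n = 4) in the pulmonary sinus (log2 fold change -1.36 ± 0.35 SE, edgeR adjusted p = 0.0362). The list's median was -0.27 against the pulmonary sinus, and the call of CAMK2G was lost without autograft replicate 1 or 2 or pulmonary replicate 2 or 3. CAMK2D was the gene of smallest p against the aortic sinus, at 0.54 ± 0.19 (edgeR adjusted p = 0.126).

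Cytoplasmic and non-muscle forms of the filament proteins had a median of 0.40 against the pulmonary sinus (all genes 0.00), with 2 of 9 called, both higher in the autograft, where 6.05% of all genes were called higher. TPM3, a tropomyosin of non-muscle and slow skeletal muscle cells, was at 116, 158 and 123 CPM in the autografts and at 85.6, 44.5, 46.7 and 60.8 CPM in the pulmonary libraries. All autografts were above all pulmonary libraries (log2 fold change 1.16 ± 0.22 SE, edgeR adjusted p = 0.0147). CNN2, the calponin of non-muscle cells, was 0.68 ± 0.18 (SE) higher (edgeR adjusted p = 0.0383). The TPM3 call was lost without autograft replicate 2, and that of CNN2 without animal D3, autograft replicate 2 or 3, or pulmonary replicate 1, 2 or 3. Against the aortic sinus 0 of 9 were called in edgeR, with 0.948% of all genes called higher, and the median was 0.02. At an unadjusted p under 0.05 there were 2 of 9, and 23% of all genes. TPM3 stood at 0.80 ± 0.22 there (edgeR adjusted p = 0.0820) and was called by DESeq2.

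Of 17 other cytoskeletal genes of smooth muscle, edgeR called 7 lower and 0 higher against the pulmonary sinus (median -0.74), where 5.29% of all genes were called lower. Against the aortic sinus 2 were called lower (median -0.47), with 1.43% of all genes called lower. FLNA, filamin A, which crosslinks actin, was at 7695 ± 1915 CPM (SD, n = 3) in the autograft and 18840.4 ± 5727 CPM (SD, n = 4) in the pulmonary sinus (log2 fold change -1.29 ± 0.29 SE, edgeR adjusted p = 0.0221). SYNPO2, TNS1 and PGM5, which sit at actin attachment sites, were at -1.04 ± 0.16 (edgeR adjusted p = 0.00870), -1.52 ± 0.25 (0.00941) and -1.11 ± 0.24 (0.0206). SYNPO2 (-0.78 ± 0.16, edgeR adjusted p = 0.0365) and TNS1 (-1.18 ± 0.24, 0.0372) were also called lower against the aortic sinus. Against the pulmonary sinus the calls of SYNPO2 and TNS1 were kept whichever library was left out. PGM5 lost its call without autograft replicate 2 or pulmonary replicate 2 or 3, and FLNA without autograft replicate 1 or 2 or pulmonary replicate 2 or 3. Against the aortic sinus both calls were lost without animal D3 (edgeR adjusted p = 0.0645 for SYNPO2 and 0.0596 for TNS1) and in 6 of 7 fits that left out 1 library each, with SYNPO2 kept without autograft replicate 3 and TNS1 without aortic replicate 2.

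Of 8 regulators of smooth muscle transcription, edgeR called 2 lower against the pulmonary sinus and 1 lower against the aortic sinus. Over all genes, 5.29% and 1.43% were called lower. MYOCD, the coactivator of SRF at contractile genes, was at 96.9, 72.3 and 55.4 CPM in the autografts and at 215 to 357 CPM in the pulmonary libraries (log2 fold change -1.89 ± 0.24 SE, edgeR adjusted p = 0.00420). Among the autografts MYOCD was highest in replicate 1, the library in which MYH11 was lowest. The MYOCD calls were kept whichever library was left out, and without animal D3. MEF2C, a transcription factor of muscle, was at -0.64 ± 0.15 (edgeR adjusted p = 0.0266), a call lost without autograft replicate 2 or pulmonary replicate 2 or 4. Of 14 striated muscle genes 1 was called lower against the pulmonary sinus, where 5.29% of all genes were. It was the cardiac myosin MYH7 (-2.39 ± 0.56 SE, edgeR adjusted p = 0.0256). Against the aortic sinus 0 were called, and 2 had an unadjusted p under 0.05, as did 23% of all genes. The list's median was 0.68 against the pulmonary sinus, with 10 of 14 estimates above 0, opposite in sign to MYH7. Against the aortic sinus MYH7 stood at -2.37 ± 0.56 (SE; edgeR adjusted p = 0.0534) and was called by DESeq2 and in edgeR without animal D3 (0.0494) or with the 2 groups alone (0.0405). MYH7 had 8.99 ± 1.09 CPM (SD, n = 3) in the autograft and 47.0 ± 26.2 CPM (SD, n = 4) in the pulmonary sinus. Its call against the pulmonary sinus was lost with the 2 groups alone (edgeR adjusted p = 0.0532) and with the animal as a random block (adjusted p = 0.0992). That call was also lost whichever autograft was left out, and without pulmonary replicate 2 or 3. Between the native sinuses edgeR called 0 genes of each of the 5 lists.

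Markers of some other cell types differed between the groups. Their sums are CPM of the library total, without the TMM adjustment. Of all genes tested, 6.05% were called higher and 5.29% lower against the pulmonary sinus. Against the aortic sinus 0.948% were called higher and 1.43% lower. Summed over 8 fibroblast genes, the autografts stood at 21290 to 31191 CPM, above the aortic (10523 to 12397) and pulmonary libraries (5911 to 14862), and 3 of 8 passed as higher in edgeR against the pulmonary and 2 of 8 against the aortic sinus. Summed over 8 T and NK cell genes the autografts stood at 33.4 to 43.1 CPM against 5.62 to 9.78 (aortic) and 2.24 to 7.89 (pulmonary), with 6 of 8 and 4 of 8 higher. Macrophage genes (7) summed to 88.2 to 522 CPM in autograft, 62.5 to 161 in aortic and 36.2 to 142 in pulmonary libraries, with 3 of 7 and 0 of 7 higher and overlapping sums, and endothelial genes (7) to 134 to 1525 CPM, 227 to 574 and 124 to 386, with 2 of 7 and 0 of 7 higher and overlapping sums. Pericyte genes (6) summed to 1122 to 1533 CPM in autograft, below the aortic (1900.04 to 2345) and pulmonary libraries (1812 to 2599), with 2 of 6 and 0 of 6 lower. Of 7 adipocyte and 5 Schwann cell genes 0 were called in edgeR. Against the pulmonary sinus 3 and 2 of them had an unadjusted p under 0.05, as did 30.6% of all genes. Of 6 cardiomyocyte genes tested 1 was called, MYH7, lower against the pulmonary sinus. No marker in the count tables was at 0 in all libraries. The part of a changed mix of cells in the lower filament genes was not tested.

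The deposited FPKM, the length-scaled values, could not serve for these genes. ACTA2, TPM2 and CALD1 each had 1 identical FPKM in all 11 libraries (3702, 2680 and 996 in run 1), although their counts differed up to 3.37-fold, 2.96-fold and 1.78-fold between libraries in that run. TAGLN had 2 distinct values, with 10 libraries at 6474, CNN1 and TPM1 had 3, and MYH11 had 4 and was identical in all 8 native libraries. Averaged over both runs, 7 of 10 members had fewer than 5 distinct FPKM values, against 64 of 14873 genes (0.430%), and the median gene had 11. The sources used here do not name the step that made the values equal. Fold changes of these genes from FPKM are therefore held to it, and no order of levels between genes was drawn.

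**Figure D5:**
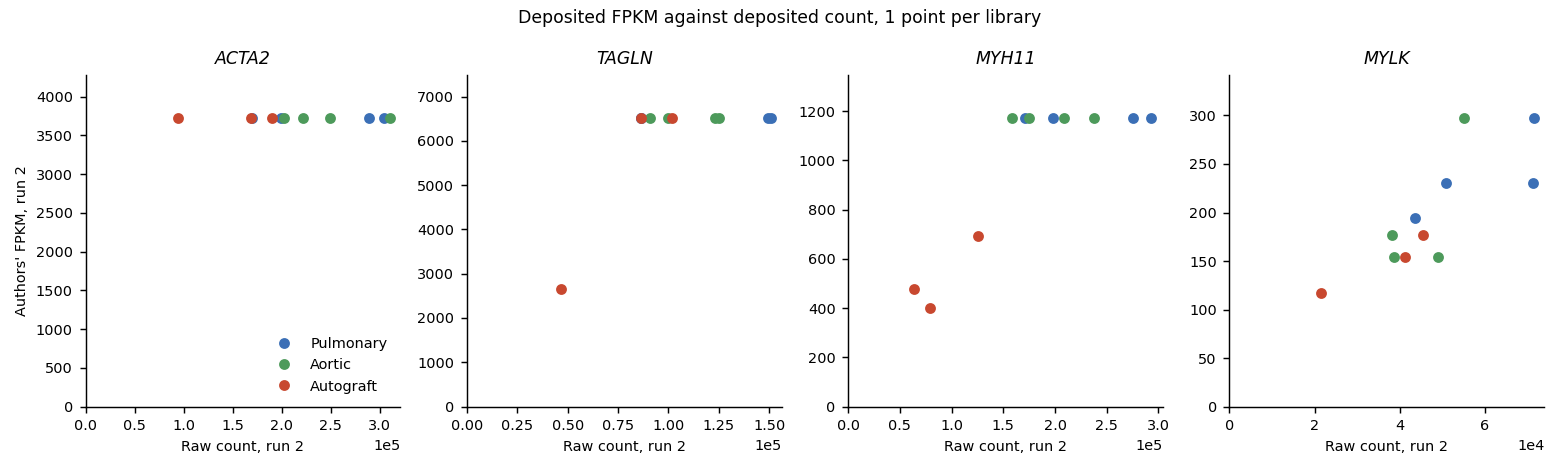
Deposited FPKM against the deposited count in run 2 for 4 contractile filament genes, 1 point per library on linear axes. ACTA2 has the same FPKM at every count, TAGLN at every count but that of 1 autograft, MYH11 at the counts of the 8 native libraries, and MYLK takes 6 values.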

How the data were processed

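The authors deposited raw counts per gene and FPKM values for each of 2 runs. The tools listed, without roles, in the submitters' processing notes are featureCounts 1.5.3, STAR 2.5.2b, Bowtie2 2.3.3.1 and cutadapt. The genome build and strand setting were not stated there. Runs were summed to 11 libraries (17380599 to 20741334 counts). One row without a gene name, at most 0.000522% of counts, was left out. RefSeq symbols matched 18717 of 26200 symbols. The main test was edgeR 4.0.16 (quasi-likelihood, TMM, filterByExpr, all 3 groups in 1 fit) with Benjamini-Hochberg adjustment over 14979 genes and a threshold of 0.05, after being tested on simulated data. Alternatives were DESeq2 1.42.0, limma 3.58.1 on log2(FPKM + 1), RLE factors, no filter, 2 groups alone, an animal block and left-out libraries. Ratios of members were compared with exact permutation tests (scipy 1.17.1) on log2 values, without pairing by animal. The members, lists and tests were chosen with earlier results of these data known. All members were named, and of each list up to 4 called genes of smallest p, or 1 where none was called. Animals D3 to D6 gave both native tissues, which pairs those libraries. The correlation of their deviations was -0.18, -0.13, 0.43 and 0.45. No reference sequences were used here.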

Additional observations from a re-analysis of the deposited data

Results flagged for a closer look

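In 3 cases a single library lay far from the rest of its group by Dixon's test. The ACTG2/ACTA2 count ratio of aortic replicate 4 was 0.115, and the other aortic libraries were at 0.196 to 0.203. The CNN1/CALD1 ratio of the same library was 0.956, with the others at 1.57 to 1.65. The MYH11/ACTA2 ratio of pulmonary replicate 2 was 0.903, and the other pulmonary libraries were at 0.995 to 1.01. Chance flags about 5% of groups, and 36 groups of 4 libraries were tested.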

How the results depend on the processing

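The number of members called lower against the pulmonary sinus was 2 in edgeR, 1 with FPKM (each pseudocount and filter), 0 with the 2 groups alone, 0 to 2 with 1 library left out, and 1 without pulmonary replicate 1 and autograft replicate 1. It was 2 with the animal as a random replicate block, without animal D3 and with library totals, and DESeq2 added CALD1. Against the aortic sinus it was 0 in edgeR, with the random block and in every fit with 1 library left out, 2 with DESeq2 and 1 with each FPKM setting. That 1 is MYH11, whose FPKM is the same in all 8 native libraries. Between the native sinuses it was 0 in every setting. Over all genes, 1699 were called against the pulmonary sinus (DESeq2 2997, 2 groups alone 479, 1 library left out 452 to 2753) and 356 against the aortic sinus (DESeq2 1469, without animal D3 110, 1 library left out 25 to 210). MYH11 and SMTN stayed below 0 in both autograft comparisons in every setting, with the calls lost as given beside them.

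The direction of some differences turned. ACTG2 was at 0.091 against the pulmonary sinus without pulmonary replicate 1 and autograft replicate 1, and at -0.13 against the aortic sinus with FPKM. Ratios from FPKM, whose values repeat between libraries, turned for ACTG2/ACTA2 (-0.27 against pulmonary, -0.13 against aortic, where counts gave 0.75), TAGLN/ACTA2 (-0.44 in both), TPM2/TPM1 (0.34, 0.15 and, between the native sinuses, 0.19) and CALD1/TPM1 (0.34 and 0.15). With 1 library left out, values spanned 0 against the pulmonary sinus for ACTG2 (-0.72 to 0.27), CNN1/CALD1 (-0.59 to 0.19) and CALD1/TPM1 (-0.38 to 0.034). Against the aortic sinus they did so for ACTG2 (-0.33 to 0.62), MYLK (-0.40 to 0.074), TPM1 (-0.20 to 0.073) and CNN1/CALD1 (-0.48 to 0.31). Between the native sinuses they did so for ACTG2 (-0.57 to 0.026), TAGLN (-0.25 to 0.056), CNN1 (-0.24 to 0.019), SMTN (-0.34 to 0.061), TPM2 (-0.32 to 0.037), TPM2/TPM1 (-0.15 to 0.092), CNN1/CALD1 (-0.26 to 0.072), ACTA2 (-0.13 to 0.17), CALD1 (-0.083 to 0.075) and CALD1/TPM1 (-0.021 to 0.24). The cause was not tested beyond the library left out.

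With 3 autografts the design holds few degrees of freedom, and leaving out 1 library moved the call of either named gene. Counting error of the members was at most 0.955% in any library.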

Other observations

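The row of ACTB, the cytoplasmic beta actin that every cell makes in abundance, held 1 count in all over the 11 libraries, so that the most common non-muscle actin is not represented in these counts. ACTG1, the other cytoplasmic actin, stood at 3002 to 4593 CPM and was not called in any comparison in edgeR. The aortic library of animal D4 and the pulmonary library of animal D3 deviated from their groups together (correlation 0.40 across genes), as did the aortic library of D3 and the pulmonary library of D4 (0.26), while each of these animals' own pairs correlated below 0 (-0.18 and -0.13).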
